A study of Mus musculus with 15 samples.

Results

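The 38 genes described here make up the glutathione and NRF2 antioxidant programme of mouse cells, measured in mouse lungs seeded with metastases of B16-F10.1, a mouse melanoma line. They were taken by name and matched from gene symbol to Ensembl gene ID. All 38 matched 1 ID each among the 37620 IDs of the deposited files, and all 38 were among the 16001 genes with enough counts for a test. Male C57BL/6J mice, 8 weeks old, carried lung tumours grown for 21 days from 100000 cells given into the tail vein, and then ate a test diet for 2 weeks. The diets differed in methionine, an essential sulphur amino acid. Of the 4 groups, 3 libraries came from the methionine adequate diet, whose percentage the labels leave out. The supplemented diet held 300% (6 libraries), the restricted diet 25% (3 libraries) and the deficient diet 0% (3 libraries). All 15 libraries came from the same line in the same host strain. The series' design text names the other 3 diets and the sample labels add the supplemented one, so its timing is not given in the sources used here. The tumours all come from a single transplanted line, and the labels do not say whether each library came from its own mouse. P-values therefore measure the spread between these samples, which may in part be technical.

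Glutathione is a small peptide built from glutamate, cysteine and glycine, and cells can make its cysteine from methionine by transsulfuration. Its synthesis needs glutamate-cysteine ligase and glutathione synthetase, and it serves as the electron donor of glutathione peroxidases and as the conjugating partner of glutathione S-transferases. The transcription factor NRF2, encoded by Nfe2l2, is held low by KEAP1 and, when released, pairs with small MAF proteins at antioxidant response elements, which lie near many genes of glutathione synthesis, quinone reduction, thioredoxin recycling and NADPH supply.

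The antioxidant response element has the core TGACNNNGC, where N is any base. It was searched on both strands of RefSeq promoter windows (mouse build GRCm38.p6) that run from 250 bases before to 50 bases after each listed gene start. The table held 32 of the 38 members. It had no entry for Hmox1, Gclc, Prdx6, Gsta4, Sod3 and Gsr, so these were not searched, nor was any sequence outside the windows. Of the 32 members, 11 had the core (34.4%), against 11 of 60 other pathway genes (18.3%) and 14% of all 27025 genes in the table. Some genes have several windows, and counted by window these shares were 29.5%, 14.6% and 12.4%. The 11 members were Nfe2l2, Srxn1, Gclm, Prdx1, Pgd, Mgst1, Me1, Ggt1, Txnrd1, Sod1 and G6pdx, and Ggt1 had the core in 3 separate windows. The core can overlap the AP-1 site (TGACTCA or TGAGTCA), which was so in 2 of 13 stretches, those of Prdx1 and Me1. The 5 stretches printed here belong to the regulator itself and to 4 members whose values are given below, and they lie wholly before the gene start. Each is read 5′ to 3′ on the gene's own strand, with the core in capitals as it reads on that strand. The core stands on the gene strand in Nfe2l2 and on the opposite strand in the other 4.
Nfe2l2, chr2:75704870-75704913, minus strand, core at -240 from the start: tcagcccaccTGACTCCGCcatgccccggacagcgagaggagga
Gclm, chr3:122245398-122245456, plus strand, core at -134: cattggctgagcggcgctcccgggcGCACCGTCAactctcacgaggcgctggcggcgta
Txnrd1, chr10:82859089-82859147, plus strand, core at -92: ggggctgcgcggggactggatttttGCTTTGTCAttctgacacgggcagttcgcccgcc
Prdx1, chr4:116685441-116685499, plus strand, core at -133: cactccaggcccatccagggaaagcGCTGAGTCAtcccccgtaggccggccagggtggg
Mgst1, chr6:138140446-138140504, plus strand, core at -56: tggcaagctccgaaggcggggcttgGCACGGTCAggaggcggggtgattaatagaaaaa
A match of these letters is a description of the sequence and not a bound site.

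Levels are given as CPM, counts scaled to a common TMM-adjusted library total, and in the order of library number within a diet. Total counts ran from 13107700 to 29994300 per library. The 9 melanocyte markers had counts in every library, at a mean log2 CPM of 9.24 to 10.23. Markers of normal lung also had counts: the summed CPM of 9 markers of alveolar type 2 cells, the surfactant-making cells of the lung, ran from 327 to 1049 on the adequate and from 154 to 1741 on the supplemented diet. On the restricted diet it ran from 110 to 623, and on the deficient diet from 260 to 6216. Sftpa1 and Sftpd were at 0 in 1 library and Lamp3 in 2, and all 9 had counts in the rest. The sums of 154 and 110 came mostly from Abca3 and Etv5. In supplemented 5 these had 42.4 and 108 CPM, beside 0.186 for Sftpc and 0.186 for Slc34a2. In restricted 2 they had 63.2 and 34.4, beside 2.32 and 3.18. Unlike the other markers, Etv5 was highest in supplemented 5. In bulk tissue, fewer cells of a type and less RNA per cell cannot be told apart. Library deficient 3 had the highest alveolar type 2 level (mean log2 CPM 8.68) and the lowest melanocyte level, and supplemented 5 had the lowest alveolar type 2 level (-0.05) and the highest level of skeletal muscle markers (7.41). Library adequate 1 had 49.2% of its counts on IDs with an effective length under 300 bases, against 15.2% to 30.5% in the others.

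Per kilobase of effective length, the members spanned over 3 orders of magnitude. Gstp1, a pi-class glutathione S-transferase, had the highest level, with a median of 1431 CPM per kilobase (range 1087 to 2079), followed by the lipid hydroperoxide-reducing peroxidase Gpx4 at 417 and the peroxiredoxin Prdx1 at 366. Gpx1, the main cytosolic glutathione peroxidase, had 224 and the alpha-class transferase Gsta1 had 209. The lowest median levels were 0.611 for Gpx2, a peroxidase of gut epithelium with no counts in 1 library, 1.82 for Gpx7, 3.24 for the quinone reductase Nqo1, 3.43 for Mgst2 and 3.97 for Sod3. Of 37 pairs of neighbours in this order, 34 differed by no more than 1 SD of their library-by-library log2 difference. The 3 exceptions were Gstp1 over Gpx4 (15 of 15 libraries), Prdx1 over Gpx1 (15 of 15) and Keap1 over Gclc (13 of 15). Reads of Gstp1 and Gsta1 are shared with the near-identical Gstp2 and Gsta2, so their levels are uncertain. Estimated counts with fractional parts also occurred in all or most libraries for Prdx5, Keap1, Gclm and Sod2.

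**Figure D1:**
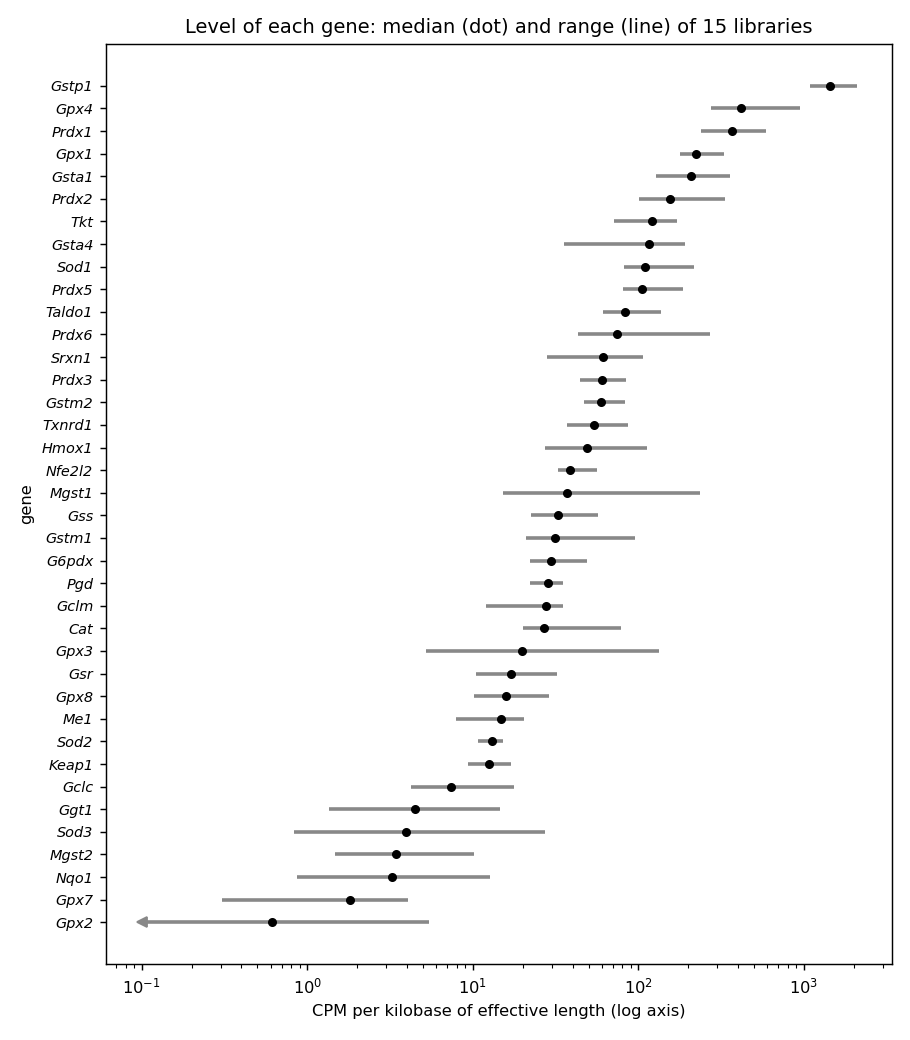
CPM per kilobase of effective length on a log axis for each of the 38 genes, with the median of 15 libraries as a dot and their lowest to highest value as a line. Gstp1 stands highest at 1431 and Gpx2 lowest at 0.611, and the arrow marks the library in which Gpx2 had no counts.

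The spread of a member over the 15 libraries, as the SD of log2 CPM, had a median of 0.35, against 0.43 over all 16001 genes, and 14 of 38 members lay above the median gene. The steadiest were Sod2, with 39.5 to 55.8 CPM, and Gclm, with 22.9 to 34.1 CPM. The widest ratios of highest to lowest library among members with counts in every library were 32.9 for Sod3, 25.5 for Gpx3 and 17.4 for Ggt1. Single libraries held many of the extremes. Deficient 3 was the highest library for 11 members (28.9%, against 22.9% of all genes): Cat, Gclc, Gpx2, Gpx3, Gss, Gstm1, Gstm2, Mgst1, Mgst2, Prdx6 and Sod3. Adequate 1 was the highest for 10 (26.3%, against 16.6% of all genes): Gpx1, Gpx4, Gpx8, Gstp1, Prdx1, Prdx2, Prdx3, Prdx5, Sod1 and Sod2. The 10 members highest in adequate 1 had a median effective length of 802 bases, and the other members 1337.

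**Figure D2:**
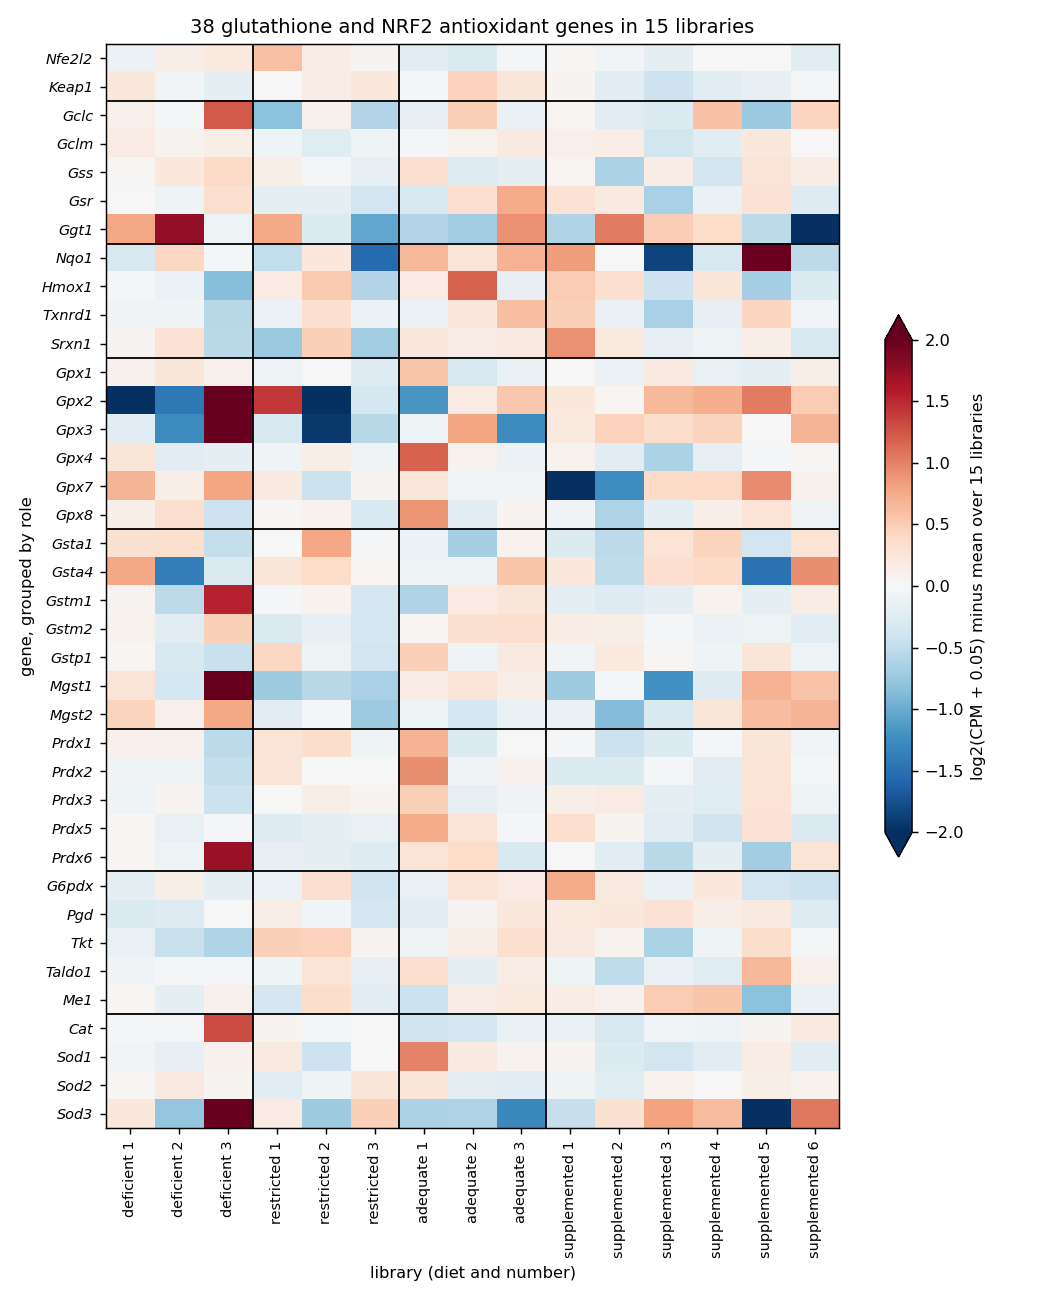
Each cell is log2(CPM + 0.05) of 1 gene in 1 library minus that gene's mean over 15 libraries, with colour limits at -2 and 2, genes grouped by role and libraries by diet. Deficient 3 holds the highest value of 11 genes and adequate 1 of 10, and no diet forms a block of 1 colour.

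No member passed an adjusted p of 0.05 in any of 8 tests with edgeR, DESeq2 or limma-voom. The percentages of all 16001 genes called by edgeR were 0.00625% (1 gene) for deficient minus adequate and for any difference among the 4 diets, and 0% for the other 5 contrasts and for the trend along the methionine rank. At an unadjusted p under 0.05, edgeR gave 5 of 38 members in deficient minus adequate (2 higher, 3 lower), beside 15.1% of all genes, and 5 in restricted minus adequate (1 higher, 4 lower), beside 9.17%. It gave 4 in supplemented minus adequate, all lower, beside 9.77%. Between the other diets it gave 6 in deficient minus restricted (5 higher, 1 lower), beside 7.44%, 4 in deficient minus supplemented, all higher, beside 5.45%, and 1 in restricted minus supplemented, beside 2.18%. The test of any difference gave 6 members beside 9.47%, and the trend gave 3 beside 3.47%. The members' shares in these 8 edgeR tests were 2.63% to 15.8%. In the test of any difference, the smallest adjusted p by edgeR were 0.447 for Mgst1, 0.49 for Prdx6, 0.495 for Tkt and 0.497 for Sod3.

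DESeq2 called more genes overall: 3.69% of all genes in deficient minus adequate, 0.823% in restricted minus adequate, 0.86% in supplemented minus adequate, 0.0565% in deficient minus restricted and 1.7% for any difference, with 0% in the remaining 3 tests, and no member in any. limma-voom called 0.00625% in deficient minus adequate, 0.0187% in supplemented minus adequate and 0% in the other 6 tests. At an unadjusted p under 0.05, DESeq2 gave 15.8% of members beside 17.9% of all genes in deficient minus adequate, 13.2% beside 10.6% in restricted minus adequate and 10.5% beside 11.2% in supplemented minus adequate. It gave 18.4% of members beside 9.32% in deficient minus restricted, 13.2% beside 6.57% in deficient minus supplemented and 2.63% beside 2.79% in restricted minus supplemented. For any difference it gave 21.1% beside 13.3%, and for the trend 5.41% beside 3.38%. limma-voom gave 2.63% to 10.5% of members per test, beside 2.2% to 12.2% of all genes.

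Without deficient 3 the unadjusted count was 1 in place of 5 of 38 members in deficient minus adequate (all genes 7.02%), 1 in place of 6 in deficient minus restricted (2.42%) and 2 in place of 4 in deficient minus supplemented (2.41%), where both were then lower in the deficient group. It was 3 in place of 6 in the test of any difference (6.77%) and 2 in place of 3 in the trend (2.65%). Without adequate 1 the counts were 7 in deficient minus adequate (18.4% of members, beside 12.9% of all genes) and 3 in restricted minus adequate (7.89%, beside 9.22%). For the 4 members of supplemented minus adequate, the log2 fold change without adequate 1 was nearer 0 for Sod1, Gpx4 and Prdx2. It was -0.27 in place of -0.61, -0.14 in place of -0.64 and -0.10 in place of -0.46. For Keap1 it was -0.53 in place of -0.40. In restricted minus supplemented the count was 2 without supplemented 5 (5.26%, beside 2.59%), and 7 without adequate 1, supplemented 5 and deficient 3 together (18.4%, beside 7.25%). The median log2 fold change of the 38 members was -0.13 in deficient minus adequate (all genes 0.04), -0.12 in restricted minus adequate (0.01), where 30 of 38 lay below 0, and -0.08 in supplemented minus adequate (0.03). These 3 contrasts share the adequate libraries. The median was 0.12 in deficient minus restricted (0.02), 0.10 in deficient minus supplemented (0.02) and -0.02 in restricted minus supplemented (-0.01). The pooled SD within diets of the members' mean log2 CPM was 0.128.

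**Figure D3:**
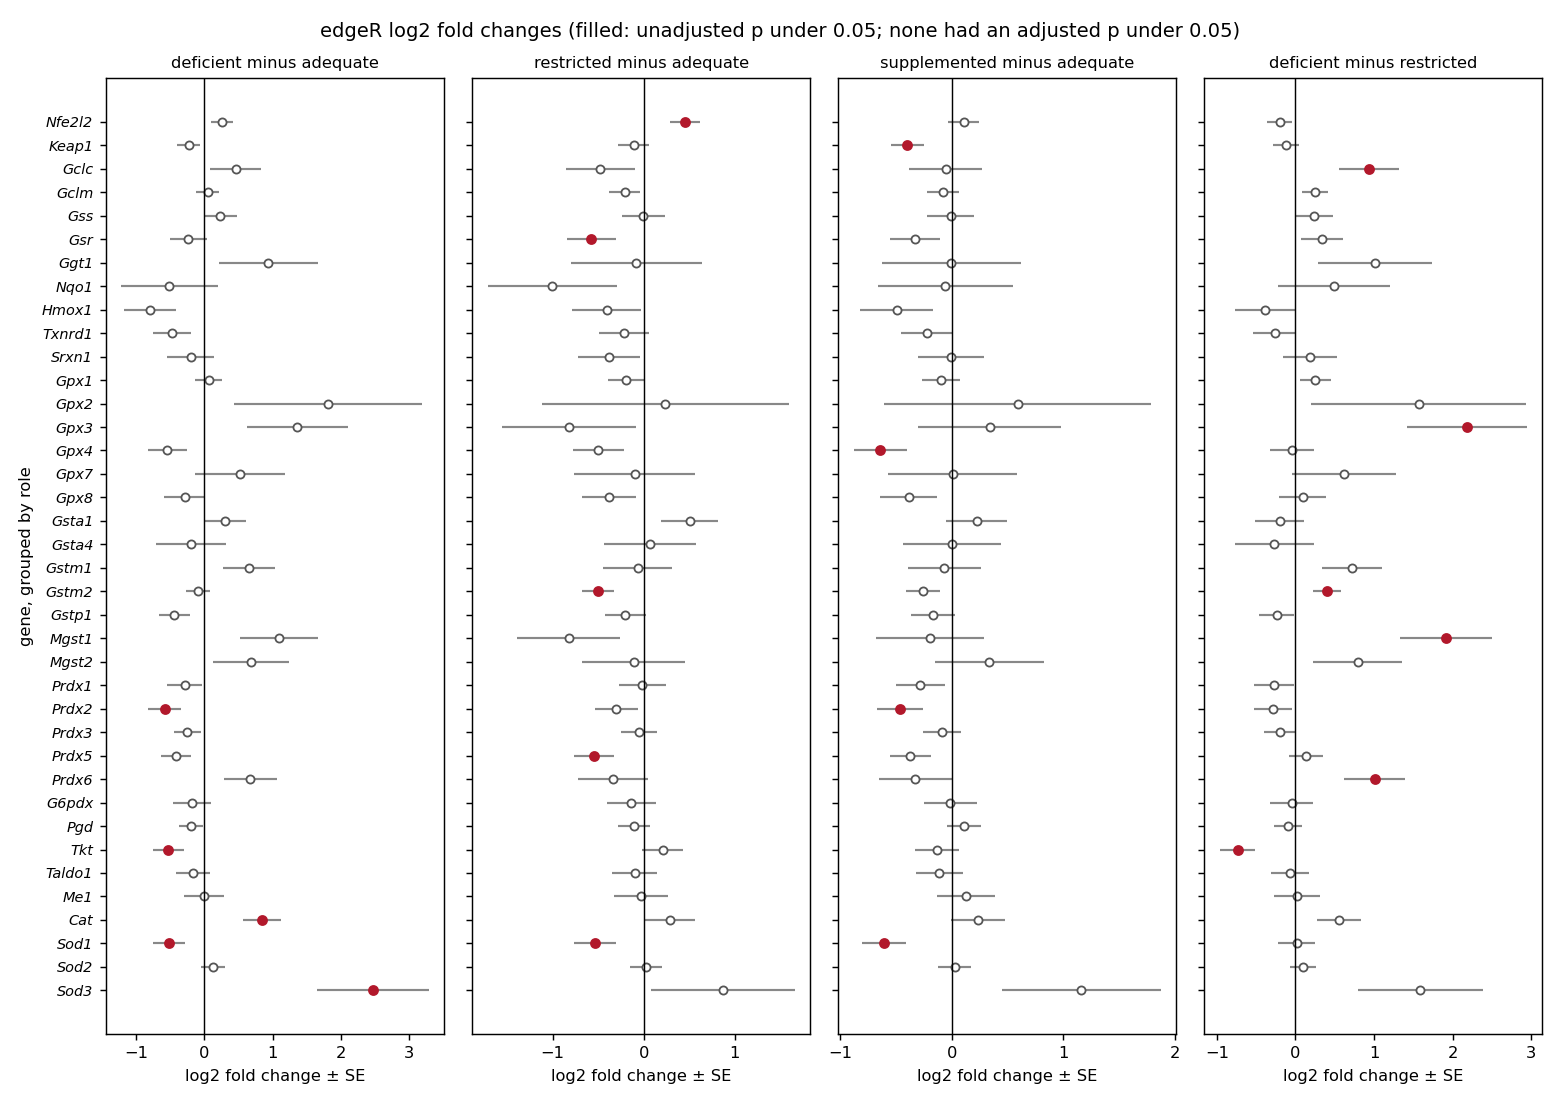
edgeR log2 fold changes with SE of the 38 genes in 4 contrasts, on separate horizontal scales. Filled dots have an unadjusted p under 0.05 (5, 5, 4 and 6 genes from left to right), and no gene had an adjusted p under 0.05.

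Where 2 groups of 3 libraries were compared, the values of some members did not overlap. In deficient minus adequate, Cat and Mgst2 were higher in every deficient library (2 of 38, beside 7.91% of all genes) and Tkt was lower (1 of 38, beside 7.96%). In restricted minus adequate, Cat and Nfe2l2 were higher (2 of 38, beside 8.37%) and Gclm, Gstm2, Mgst1, Nqo1 and Prdx5 were lower (5 of 38, beside 8.27%). In deficient minus restricted, Gclm, Gpx1, Gsr, Mgst1, Mgst2 and Prdx6 were higher (6 of 38, or 15.8%, beside 4.71%) and Prdx2 and Tkt were lower (2 of 38, beside 6.38%). These counts carry no adjustment for the number of genes.

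Of the 2 regulators, Nfe2l2 itself had higher values in the restricted group, without passing the adjusted test. It had 132, 97.8 and 91.9 CPM in the restricted group, 75.2, 72.5 and 86.8 in the adequate group and 81.6, 96.9 and 101 in the deficient group, and 75.2 to 89.5 (median 86.4) in the supplemented group. All 3 restricted libraries lay above all adequate libraries (beside 8.37% of all genes) and above all supplemented ones (beside 1.32%). By edgeR, the log2 fold change was 0.45 (SE 0.16, adjusted p = 0.433) in restricted minus adequate and 0.35 (SE 0.14, adjusted p = 1) in restricted minus supplemented, with 0.28 to 0.56 and 0.17 to 0.45 over the alternatives. For Keap1, the adaptor that sends NRF2 to degradation, the adequate group had 43.2, 60.6 and 52.4 CPM, the restricted group 44.3, 49.2 and 51.2, the deficient group 51.3, 42.6 and 39.2, and the supplemented group 33.3 to 45.7 (median 38.7). The supplemented libraries were mostly below the adequate ones, and the highest supplemented library lay above the lowest adequate one. The log2 fold change was -0.40 (SE 0.15, adjusted p = 0.421 by edgeR) in supplemented minus adequate and 0.29 (SE 0.15, adjusted p = 1) in restricted minus supplemented.

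**Figure D4:**
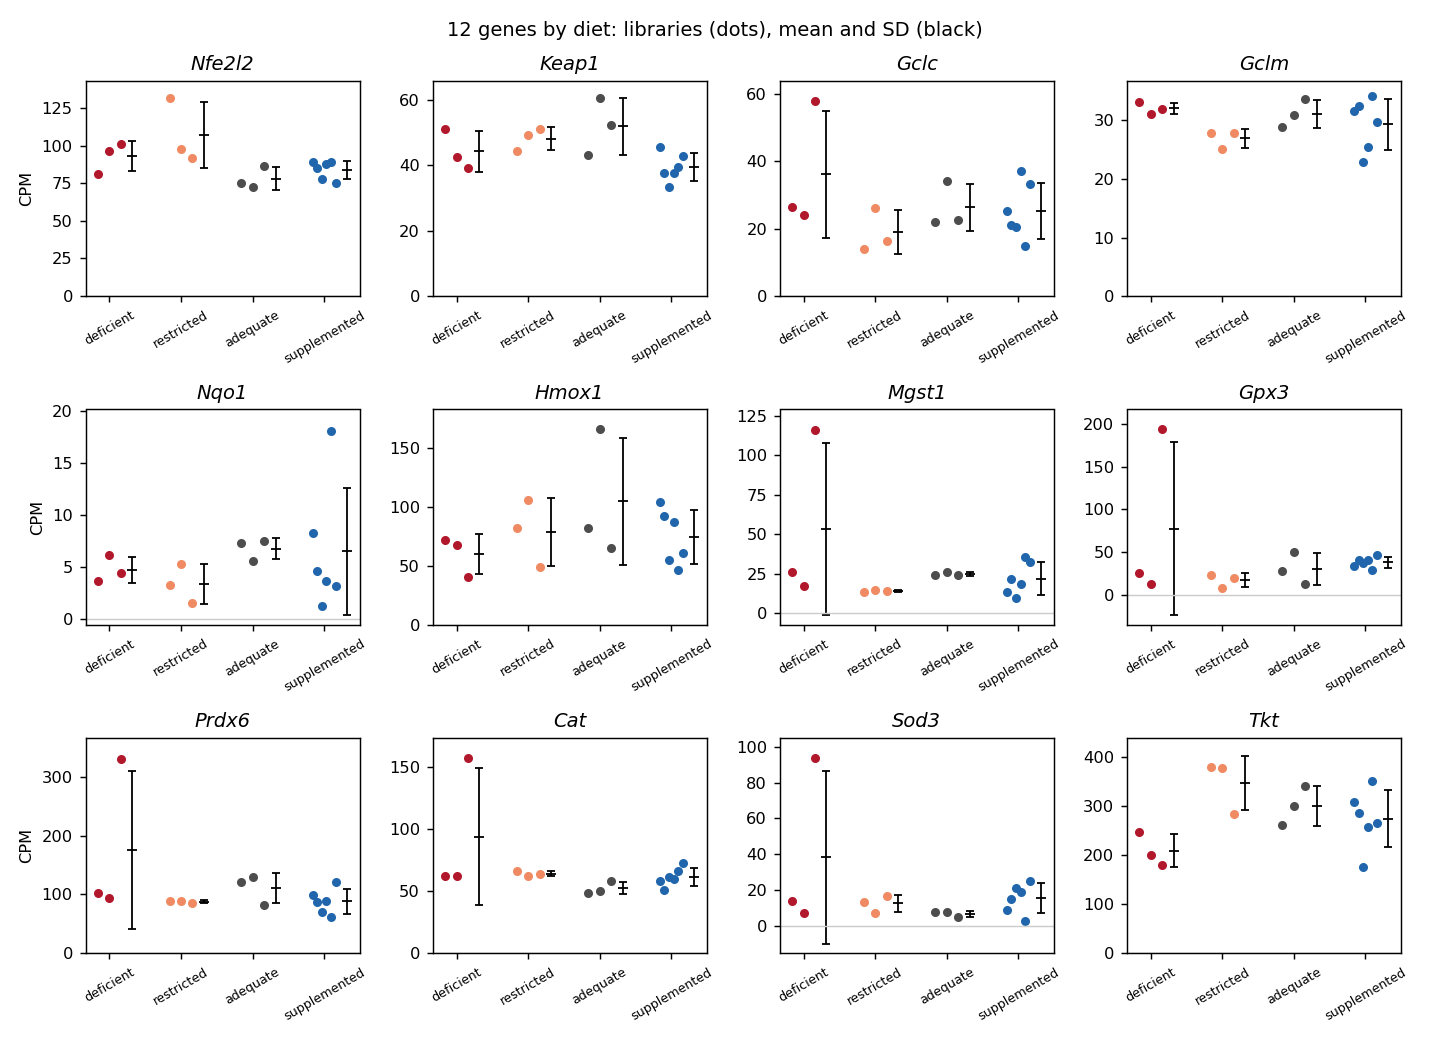
CPM by diet for 12 genes (a grey line marks 0 where an axis runs below it), with a dot per library (n = 3, 3, 3 and 6 for deficient, restricted, adequate and supplemented) and the mean and SD of each diet in black. Deficient 3 is the single high dot of Gclc, Mgst1, Gpx3, Prdx6, Cat and Sod3, and the 3 restricted libraries of Nfe2l2 lie at 91.9 to 132.

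Among the genes of glutathione synthesis and recycling, the first to be described is Gclc, the catalytic subunit of glutamate-cysteine ligase. Gclc had 22.1, 34.3 and 22.6 CPM in the adequate group, 13.9, 26.3 and 16.5 in the restricted group, 26.4, 24.1 and 58.0 in the deficient group, and 14.8 to 37.1 (median 23.2) in the supplemented group. The deficient value rested on deficient 3, and the other 2 deficient libraries fell within the range of the remaining diets. Its log2 fold change in deficient minus restricted was 0.93 (SE 0.38, adjusted p = 0.649 by edgeR), and in deficient minus adequate 0.46 (SE 0.38, adjusted p = 0.581). The alveolar type 2 level was also highest in deficient 3, and over the 15 libraries it correlated with Gclc at r = 0.60 (adjusted permutation p = 0.118). Alveolar type 1, endothelial and erythroid levels were highest there too, with r of 0.693, 0.626 and 0.645. The melanocyte level was lowest there, with r = -0.726. These further r carry no p, and which of these cell types Gclc follows was not tested. Gclm, the modifier subunit of the same ligase, had 28.8, 30.9 and 33.6 CPM in the adequate group, 27.8, 25.1 and 27.9 in the restricted group, 33.1, 31.1 and 32 in the deficient group, and 22.9 to 34.1 (median 30.7) in the supplemented group. The restricted libraries all lay below the adequate and deficient ones, by a small margin. The edgeR log2 fold changes were -0.21 (SE 0.17, adjusted p = 0.765) in restricted minus adequate and 0.05 (SE 0.17, adjusted p = 0.922) in deficient minus adequate.

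Gss, which adds glycine to complete glutathione, had 26.7, 17.9 and 18.6 CPM in the adequate group, 23.2, 20.7 and 19.1 in the restricted group, 21.8, 24.6 and 27.8 in the deficient group, and 13.7 to 25.6 (median 22.8) in the supplemented group. All 4 groups overlapped, and its 6 log2 fold changes lay between -0.01 and 0.25. Gsr, which reduces oxidised glutathione with NADPH, had 29.4, 45.9 and 60.7 CPM in the adequate group, 31.8, 31.8 and 27.9 in the restricted group, 36.6, 34 and 45.1 in the deficient group, and 23.2 to 44.4 (median 37.0) in the supplemented group. The adequate libraries spanned a wide range and overlapped those of every other diet. Its log2 fold change in restricted minus adequate was -0.57 (SE 0.27, adjusted p = 0.532 by edgeR). Ggt1, the cell-surface enzyme that breaks down glutathione outside the cell, was low and variable, at 0.877 to 15.2 CPM, with its highest value in deficient 2. Its log2 fold change was 1.02 (SE 0.73, adjusted p = 0.81 by edgeR) in deficient minus restricted and 0.93 (SE 0.72, adjusted p = 0.554) in deficient minus adequate.

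Of the 4 marker genes of NRF2 activity, Nqo1 alone had groups of 3 libraries that did not overlap, in restricted minus adequate. Nqo1, a quinone reductase and a common readout of NRF2, had 7.31, 5.57 and 7.46 CPM in the adequate group, 3.26, 5.30 and 1.54 in the restricted group, 3.67, 6.12 and 4.46 in the deficient group, and 1.23 to 18.1 (median 4.14) in the supplemented group. All restricted libraries lay below the adequate ones, yet the supplemented group spanned both. The log2 fold change was -1.01 (SE 0.71, adjusted p = 0.728 by edgeR) in restricted minus adequate and -0.51 (SE 0.70, adjusted p = 0.759) in deficient minus adequate. The highest Nqo1 value, 18.1 CPM, was that of supplemented 5, the library with the lowest alveolar type 2 and the highest skeletal muscle level. The part of the muscle content in this value was not tested.

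Hmox1, the haem-degrading oxygenase, had 82.3, 166 and 65.4 CPM in the adequate group, 81.9, 106 and 48.6 in the restricted group, 71.9, 67.8 and 40.5 in the deficient group, and 46.4 to 104 (median 73.9) in the supplemented group. Its lowest library was deficient 3 and its highest adequate 2, and the log2 fold change in deficient minus adequate was -0.80 (SE 0.39, adjusted p = 0.34 by edgeR). Txnrd1, which keeps thioredoxin reduced, had 171, 216 and 281 CPM in the adequate group, 171, 235 and 171 in the restricted group, 178, 176 and 127 in the deficient group, and 119 to 259 (median 174) in the supplemented group. The groups overlapped, with log2 fold changes of -0.47 (SE 0.27, adjusted p = 0.423 by edgeR) in deficient minus adequate and -0.21 (SE 0.27, adjusted p = 0.878) in restricted minus adequate. Srxn1, the sulfiredoxin that repairs overoxidised peroxiredoxins, had 80.3, 77.5 and 78.6 CPM in the adequate group, 41.4, 96.9 and 42.8 in the restricted group, 72.5, 85.0 and 47.7 in the deficient group, and 55.9 to 131 (median 70.5) in the supplemented group. The adequate libraries were nearly equal while the restricted ones split into 1 high and 2 low values. The log2 fold change in restricted minus adequate was -0.38 (SE 0.34, adjusted p = 0.8 by edgeR).

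Across the 15 libraries, 6 well known NRF2 targets were compared with each other. Among 15 pairs of Gclc, Gclm, Nqo1, Hmox1, Txnrd1 and Srxn1, no Pearson r of log2 CPM passed an adjusted permutation p of 0.05, and 5 pairs had an unadjusted p under that level. The highest r was 0.70 for Nqo1 and Txnrd1 (permutation p = 0.00426, adjusted p = 0.0639, Spearman rho 0.70, adjusted p = 0.0373), followed by 0.65 for Gclm and Nqo1, 0.60 for Txnrd1 and Srxn1 and 0.60 for Nqo1 and Srxn1 (adjusted p = 0.0714 each). By Spearman rho, Nqo1 and Srxn1 also passed (rho 0.75, permutation p = 0.00207, adjusted p = 0.031). With RLE scaling neither pair passed by rho (adjusted permutation p = 0.0742 for Nqo1 and Txnrd1 and 0.0591 for Nqo1 and Srxn1), nor with each diet centred (0.091 for both). Without adequate 1, supplemented 5 and deficient 3, Nqo1 and Srxn1 passed by rho (adjusted permutation p = 0.0154) but not by r (0.0502). Nqo1 and Txnrd1 then passed by r (0.826, adjusted permutation p = 0.0117) but not by rho (0.0721). With each diet centred, Nqo1 and Txnrd1 passed by r (0.766, adjusted permutation p = 0.0138), and Nqo1 and Srxn1 did not (0.103). For Nqo1 and Txnrd1, r was 0.51 without the 2 libraries farthest from the median of Nqo1, and 0.93 within the 6 supplemented libraries. For Nqo1 and Srxn1, the same values were 0.79 and 0.53. For Gclc with the other 5, r lay between -0.25 and 0.08 over all 15 libraries. Without the 3 outlying libraries it was 0.08 with Gclm, 0.22 with Txnrd1, 0.36 with Nqo1, 0.43 with Hmox1 and 0.45 with Srxn1. Leaving out of the 15 only the 2 libraries farthest from the median of Gclc gave r = 0.65 with Hmox1.

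Among the glutathione peroxidases, Gpx3 had its highest value in deficient 3 and Gpx4 in adequate 1. Gpx3, the secreted peroxidase of plasma, had 27.2, 50.5 and 12.2 CPM in the adequate group, 23.4, 7.62 and 19.9 in the restricted group, 25.4, 12.1 and 194 in the deficient group, and 29 to 46.9 (median 38.8) in the supplemented group. The deficient libraries apart from deficient 3 lay among the restricted and adequate ones. Every supplemented library lay above every restricted one (1 of 38 members, beside 0.787% of all genes). By edgeR, the log2 fold change in deficient minus restricted was 2.18 (SE 0.76, adjusted p = 0.649), and 0.15 without deficient 3. In restricted minus supplemented it was -1.16 (SE 0.67, adjusted p = 1).

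Gpx4 had 524, 245 and 215 CPM in the adequate group, 222, 255 and 221 in the restricted group, 276, 198 and 202 in the deficient group, and 150 to 243 (median 218) in the supplemented group. Adequate 1, the library with 49.2% of its counts on short IDs, stood at over 2 times any supplemented library, and the other 2 adequate libraries were close to the remaining diets. Supplemented minus adequate gave a log2 difference (fold change on the log2 scale) of -0.64 (SE 0.24, adjusted p = 0.432 by edgeR), and -0.14 (adjusted p = 0.884) without adequate 1. Of the other peroxidases, Gpx1 ran from 128 to 235 CPM, Gpx8, an endoplasmic reticulum member, from 9.01 to 25.5, Gpx7 from 0.353 to 3.22 and Gpx2 from 0 to 5.07. The highest Gpx2 value was again that of deficient 3. Gpx1 was higher in every deficient library (170, 189 and 170 CPM) than in every restricted one (149, 160 and 134), with a log2 difference of 0.26 (SE 0.20, adjusted p = 0.837 by edgeR).

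Among the glutathione transferases, the microsomal Mgst1 had the smallest p of any member in deficient minus restricted. It had 24.4, 26.3 and 24.1 CPM in the adequate group, 13.4, 14.9 and 13.9 in the restricted group, 26.3, 17.2 and 116 in the deficient group, and 9.39 to 35.5 (median 19.9) in the supplemented group. The restricted libraries lay close together and below all adequate and all deficient ones, while the supplemented libraries spanned both sides. The edgeR log2 fold change was 1.92 (SE 0.58, adjusted p = 0.649) in deficient minus restricted and 0.63 without deficient 3. It was -0.83 (SE 0.57, adjusted p = 0.718) in restricted minus adequate and 1.29 (SE 0.47, adjusted p = 0.87) in deficient minus supplemented, where it came to 0.00 without deficient 3.

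Gstm2, a mu-class transferase, had 57.1, 69.1 and 70.5 CPM in the adequate group, 45.8, 49.7 and 43.6 in the restricted group, 58.4, 48.1 and 77.3 in the deficient group, and 47.7 to 61.8 (median 53.3) in the supplemented group. All restricted libraries lay below all adequate ones. The log2 fold change in restricted minus adequate was -0.50 (SE 0.18, adjusted p = 0.433 by edgeR), and -0.61 to -0.44 over the alternatives. Gstm1, of the same class, had 38.6, 25.8 and 108 CPM in the deficient group and 31.1 to 40.9 (median 32.8) in the supplemented group, with 24.4, 41.5 and 43.7 in the adequate and 36.2, 38.9 and 29.5 in the restricted group. Only deficient 3 stood above the others, and the log2 fold change of 0.72 (SE 0.32, adjusted p = 0.87 by edgeR) in deficient minus supplemented became -0.11 without it. Gsta4, which conjugates lipid aldehydes, ran from 29.5 to 157 CPM, Gsta1 from 73.5 to 199, Gstp1 from 670 to 1278 and Mgst2 from 0.723 to 2.36.

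The peroxiredoxins, which reduce peroxides with a cysteine, split between the 2 libraries named above: Prdx1, Prdx2, Prdx3 and Prdx5 were highest in adequate 1 and Prdx6 in deficient 3. Prdx2 had 291, 145 and 162 CPM in the adequate group, 182, 152 and 152 in the restricted group, 146, 144 and 110 in the deficient group, and 127 to 185 (median 139) in the supplemented group. Adequate 1 stood alone, and the other adequate libraries overlapped all 3 remaining diets. By edgeR, the log2 fold change was -0.58 (SE 0.24, adjusted p = 0.268) in deficient minus adequate and -0.46 (SE 0.20, adjusted p = 0.499) in supplemented minus adequate, and -0.22 and -0.10 without adequate 1. Prdx5, found in mitochondria and peroxisomes, had 123, 89.0 and 72.0 CPM in the adequate group, 61.8, 65.4 and 66.6 in the restricted group, 74.5, 66.3 and 72.1 in the deficient group, and 55.9 to 92.2 (median 69.8) in the supplemented group. Its restricted libraries lay below all adequate ones, with a log2 difference of -0.55 (SE 0.22, adjusted p = 0.471 by edgeR), and -0.34 without adequate 1.

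Prdx6, which acts on phospholipid hydroperoxides and is abundant in lung, had 121, 129 and 81.0 CPM in the adequate group, 89.3, 88.1 and 84.3 in the restricted group, 102, 93.7 and 331 in the deficient group, and 61.9 to 121 (median 87.7) in the supplemented group. All deficient libraries lay above all restricted ones, 2 of them narrowly, and deficient 3 stood far above every other library. The edgeR log2 fold change was 1.01 (SE 0.39, adjusted p = 0.649) in deficient minus restricted, and 1.00 (SE 0.32, adjusted p = 0.87) in deficient minus supplemented. Without deficient 3 these were 0.17 and 0.16. With the diets ranked by methionine, from deficient as 0 through restricted and adequate to supplemented as 3, the slope of Prdx6 was -0.27 per rank (SE 0.11, adjusted p = 1 by edgeR), the smallest p of any member in the trend, and -0.03 without deficient 3. That of Mgst1 was -0.32 (SE 0.16, adjusted p = 1), and 0.09 without it.

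Of the enzymes that supply NADPH or feed the pentose phosphate pathway, Tkt, the transketolase of its non-oxidative arm, differed most. Tkt had 260, 300 and 341 CPM in the adequate group, 380, 378 and 284 in the restricted group, 246, 200 and 180 in the deficient group, and 176 to 350 (median 276) in the supplemented group. All 3 deficient libraries lay below all adequate and all restricted ones. By edgeR, the log2 fold change was -0.73 (SE 0.23, adjusted p = 0.649) in deficient minus restricted and -0.53 (SE 0.23, adjusted p = 0.287) in deficient minus adequate. Unlike those of Mgst1, Gpx3 and Prdx6, its difference from the restricted group changed little without deficient 3, at -0.64, and it lay between -0.87 and -0.57 over all alternatives. In restricted minus supplemented the log2 fold change was 0.34 (SE 0.19, adjusted p = 1 by edgeR). Pgd, the second NADPH-forming enzyme of the pathway, ran from 45.4 to 70.3 CPM, with a slope of 0.10 per methionine rank (SE 0.05, adjusted p = 1 by edgeR). G6pdx, the first such enzyme, ran from 54.5 to 122 CPM, Taldo1 from 67.2 to 151 and the malic enzyme Me1 from 24.7 to 63.7, and none of these 3 had an unadjusted p under 0.05 in any contrast.

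Catalase and the superoxide dismutases held the members with the smallest p in the 2 contrasts that set the deficient and supplemented diets against the adequate one. Cat, the peroxisomal enzyme that splits hydrogen peroxide, had 48.6, 50.4 and 58.2 CPM in the adequate group, 66.3, 62.4 and 63.5 in the restricted group, 62.2, 62.2 and 158 in the deficient group, and 51.2 to 72.7 (median 60.5) in the supplemented group. The adequate libraries lay below every restricted and every deficient library, and deficient 3 alone lay above the supplemented range. The edgeR log2 fold change in deficient minus adequate was 0.85 (SE 0.28, adjusted p = 0.197), or 1.80-fold, and 0.25 (adjusted p = 0.832) without deficient 3. In deficient minus supplemented it was 0.61 (SE 0.24, adjusted p = 0.87), and 0.02 without that library. Its slope along the methionine rank was -0.18 (SE 0.08, adjusted p = 1 by edgeR), and -0.016 without deficient 3.

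Sod1, the cytosolic dismutase, had 112, 63.7 and 58.9 CPM in the adequate group, 63.4, 42.3 and 56.4 in the restricted group, 54.2, 50 and 59.6 in the deficient group, and 43.5 to 62.2 (median 48.5) in the supplemented group. Adequate 1 was again alone, and the rest overlapped. By edgeR, the log2 fold change was -0.61 (SE 0.20, adjusted p = 0.372) in supplemented minus adequate and -0.53 (SE 0.23, adjusted p = 0.508) in restricted minus adequate. Without adequate 1 these were -0.27 and -0.20. Sod3, the extracellular dismutase, which is abundant in lung and vessel walls, had 7.87, 7.92 and 5.00 CPM in the adequate group, 13.7, 7.42 and 17.0 in the restricted group, 14.1, 7.17 and 93.7 in the deficient group, and 2.85 to 25.4 (median 17.1) in the supplemented group. The lowest library was supplemented 5 and the highest deficient 3, which are also the extremes of the alveolar type 2 level. The log2 fold change of Sod3 in deficient minus adequate was 2.46 (SE 0.82, adjusted p = 0.2 by edgeR), and 0.62 (adjusted p = 0.923) without deficient 3. Sod2, the mitochondrial dismutase, ran from 39.5 to 55.8 CPM.

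The relation of each member to the lung content of its library was measured over all 15 libraries, as the correlation of its log2 CPM with the mean log2 CPM of the alveolar type 2 markers. Sod3 alone passed an adjusted p of 0.05 by Pearson r (r = 0.81, permutation p = 0.00034, adjusted over 38 members p = 0.0129; rho = 0.87, adjusted p = 0.0019). Without supplemented 5 and restricted 2, the libraries farthest from the median marker level, r was 0.88, and within the 6 supplemented libraries 0.96. Without the 3 outlying libraries r of Sod3 was 0.65 and no longer passed (adjusted permutation p = 0.258), while that of Gpx3 was 0.89 and passed (adjusted permutation p = 0.00342). By rho, Gpx3 (rho = 0.77, adjusted permutation p = 0.0209, r = 0.67) and Prdx3 (rho = -0.76, adjusted permutation p = 0.0214, r = -0.62) also passed. For Gpx3, r was 0.93 without the 2 farthest libraries. With other marker lists, r of Sod3 was 0.96 for endothelial, 0.89 for alveolar type 1 and 0.87 for airway markers. It lay between -0.535 and 0.811 for the remaining lists. Cat had r = 0.80 with endothelial and 0.33 with alveolar type 2 markers, and Txnrd1 had -0.80 with airway markers. These values carry no p, and which of these cell types a member follows was not tested.

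With the alveolar type 2 level, the next highest r were 0.64 for Prdx6, 0.60 for Gclc and 0.45 for Gsta4. The most negative were -0.67 for Taldo1, -0.63 for Txnrd1, -0.62 for Prdx3, -0.61 for Tkt and -0.57 for Nqo1, with adjusted permutation p of 0.0969 to 0.126. Without the 2 farthest libraries, r was -0.13 for Taldo1 and -0.29 for Nqo1, so those 2 values rested on supplemented 5 and restricted 2. Txnrd1 kept -0.56, Tkt -0.48 and Prdx3 -0.64. With each diet centred on its own mean, Sod3 had r = 0.90 (adjusted permutation p = 0.00038) and Nqo1 r = -0.77 (adjusted permutation p = 0.0148). The median r was -0.07 over the 38 members and 0.01 over all genes.

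**Figure D5:**
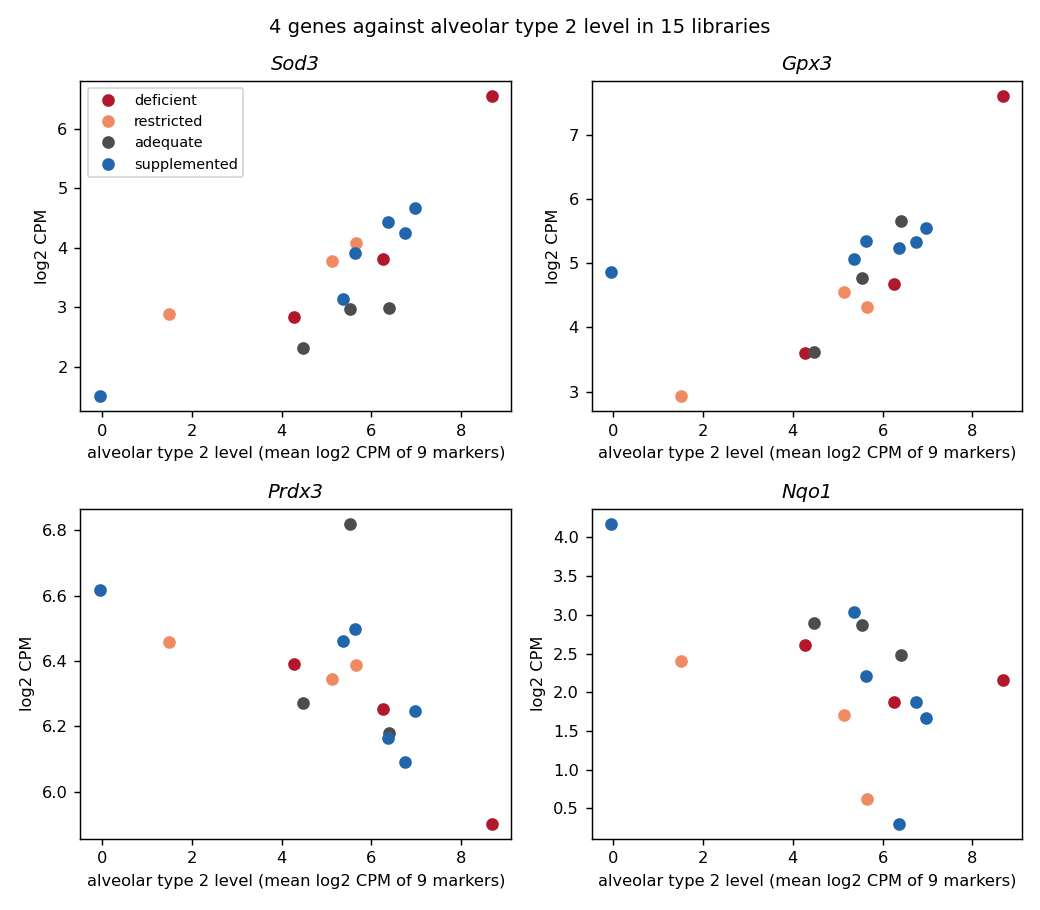
log2 CPM of 4 genes (vertical) against the alveolar type 2 level, the mean log2 CPM of 9 markers (horizontal), with a dot per library coloured by diet. Sod3 and Gpx3 run upward (r = 0.81 and 0.67) and Prdx3 and Nqo1 downward (r = -0.62 and -0.57), with deficient 3 at 8.68 on the right and supplemented 5 at -0.05 on the left.

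A wider list of 69 genes of the same pathways, not among the 38, was examined beside them, and 65 had enough counts for a test. It covers partners of NRF2, cystine uptake and glutathione breakdown, thioredoxins and glutaredoxins, methionine sulfoxide reductases, further transferases and further NRF2 targets. None of the 65 passed with edgeR or limma-voom in any test. At an unadjusted p under 0.05, edgeR gave 15 in deficient minus adequate (6 higher, 9 lower), or 23.1% beside 15.1% of all genes. It gave 9 in restricted minus adequate (13.8%, beside 9.17%) and 7 in supplemented minus adequate (10.8%, beside 9.77%), all lower in both. It gave 6 in deficient minus restricted (9.23%, beside 7.44%), 7 in deficient minus supplemented (10.8%, beside 5.45%) and 2 in restricted minus supplemented (3.08%, beside 2.18%). Without deficient 3, the first of these counts was 4 (6.15%, beside 7.02%). DESeq2 called 2, Ugdh and Msrb3, in deficient minus adequate and Ugdh in supplemented minus adequate and in the test of any difference (adjusted p = 0.0425), where it called 3.69%, 0.86% and 1.7% of all genes.

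Ugdh, which makes the UDP-glucuronate used to conjugate quinones and drugs, had 65.0, 64.5 and 49.3 CPM in the adequate group, 46.4, 45.7 and 35.8 in the restricted group, 33.2, 42.5 and 26.0 in the deficient group, and 29.9 to 44.3 (median 36.5) in the supplemented group. Every adequate library lay above every library of the other 3 diets. Taken 1 diet at a time, 7.96% of all genes were lower without overlap in the deficient group. The same share was 8.27% for the restricted and 2.24% for the supplemented group, and it was not computed for all 3 together. The edgeR log2 fold change was -0.81 (SE 0.21, adjusted p = 0.15) in deficient minus adequate and -0.69 (SE 0.18, adjusted p = 0.291) in supplemented minus adequate, with adjusted p of 0.0222 and 0.0418 by DESeq2. Over the alternatives these ran from -1.01 to -0.60 and from -0.81 to -0.58. Msrb3, a reductase that repairs oxidised methionine in proteins, had 11.6, 11.8 and 15.1 CPM in the adequate group, 21.0, 16.6 and 58.6 in the deficient group, 11.2, 19.7 and 16.8 in the restricted group, and 9.73 to 21.0 (median 17.0) in the supplemented group. Its deficient libraries lay above the adequate ones, with a log2 difference of 1.31 (SE 0.40, adjusted p = 0.179 by edgeR, DESeq2 adjusted p = 0.0412), and 0.55 without deficient 3.

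Idh1, the cytosolic NADP-dependent isocitrate dehydrogenase, had 65.4, 54.7 and 69.7 CPM in the adequate group and 42.8, 33.8 and 36.5 in the deficient group, with no overlap and a log2 difference of -0.75 (SE 0.24, adjusted p = 0.187 by edgeR). In restricted minus adequate the smallest p were those of the ferritin heavy chain gene Fth1 (-0.54, SE 0.20, adjusted p = 0.442), Mgst3 (-1.01, SE 0.40, adjusted p = 0.466) and Glrx5 (-0.54, SE 0.22, adjusted p = 0.486). Without adequate 1 these log2 fold changes were -0.57, -0.74 and -0.33. In supplemented minus adequate, Rbx1, a subunit of the ligase that ubiquitinates NRF2, had -0.52 (SE 0.17, adjusted p = 0.376 by edgeR), and the carbonyl reductase Cbr3 had -0.90 (SE 0.33, adjusted p = 0.423). Adequate 1 had 110 CPM of Rbx1 and the other 2 adequate libraries 63.1 and 66.0, and without adequate 1 the value was -0.23.

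Some of the wider genes sit at the entry and exit of the pathway. Slc7a11, the cystine carrier, had 20.3, 24.8 and 26.8 CPM in the adequate group, 14.7, 36.4 and 25.5 in the restricted group, 27.5, 14 and 12.7 in the deficient group, and 7.22 to 46.5 (median 21.2) in the supplemented group. The groups overlapped fully, with an edgeR log2 fold change of -0.40 (SE 0.51, adjusted p = 0.739) in deficient minus adequate. Chac1, which degrades glutathione inside cells and is a target of the amino acid stress response, had 34, 38.3 and 28 CPM in the adequate group, 25.1, 52.5 and 26.1 in the restricted group, 35.2, 11.3 and 13.3 in the deficient group, and 19.1 to 50.3 (median 31.2) in the supplemented group. Deficient 2 and deficient 3 were the lowest of all 15 libraries, and deficient 1 lay within the adequate range, with a log2 difference of -0.74 (SE 0.42, adjusted p = 0.417 by edgeR). Txn1, thioredoxin, had 254, 149 and 199 CPM in the adequate group and 148, 139 and 101 in the deficient group. These were narrowly free of overlap, at 149 against 148, and the highest of these values was that of adequate 1. The log2 difference was -0.63 (SE 0.22, adjusted p = 0.212 by edgeR). Of the 65 wider genes, 7 were lower in every deficient than in every adequate library (10.8%, beside 7.96% of all genes).

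In the contrasts of the deficient diet with the restricted and supplemented diets, the wider genes with the smallest p were Cbs and Msrb3 in both, Gsta3 in the first and Gstk1 in the second. Msrb3 had log2 fold changes of 1.01 (SE 0.40, adjusted p = 0.649 by edgeR) and 0.98 (SE 0.33, adjusted p = 0.87), and 0.24 and 0.21 without deficient 3. Cbs, the first enzyme of transsulfuration, had 0.847, 0.552 and 3.44 CPM in the deficient group, 0, 0.202 and 0.185 in the restricted group, 0.252, 0.100 and 0.318 in the adequate group, and 0.062 to 0.529 (median 0.311) in the supplemented group. All 3 deficient libraries were above all 12 others, at a level of few counts and narrowly, at 0.552 against 0.529 CPM. Taken 1 diet at a time, 7.91% of all genes were higher without overlap in the deficient than in the adequate group. The same share was 4.71% against the restricted and 1.01% against the supplemented group, and it was not computed for all 12 together. The edgeR log2 fold change of Cbs was 3.57 (SE 1.19, adjusted p = 0.649) in deficient minus restricted and 2.29 (SE 0.89, adjusted p = 0.87) in deficient minus supplemented. Without deficient 3 these were 2.39 and 1.10. Gsta3, an alpha-class transferase, had 39.0 CPM in deficient 3 and 0 to 10.5 elsewhere, and the mitochondrial transferase Gstk1 had 13.8 CPM in deficient 3 and 0 to 2.08 elsewhere. In restricted minus supplemented, Ggct (0.95, SE 0.40), Cndp2 (-0.49, SE 0.22) and Gstt3 (0.40, SE 0.19) had the smallest p, with an edgeR adjusted p of 1 for each. Along the methionine rank the smallest p were those of Gstk1 (slope -0.80, SE 0.27), Msrb3 (-0.28, SE 0.11) and Chac2, a glutathione-degrading enzyme at 0.338 to 4.77 CPM (0.44, SE 0.19), each with an adjusted p of 1 by edgeR. Without deficient 3 these slopes were -0.24, -0.05 and 0.34.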

How the data were processed

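The deposited files give RSEM expected counts per Ensembl gene ID with an effective length, per the file headers. The submitters' processing notes name Bowtie2 2.2.9, RSEM 1.30, edgeR and NCBIM37, and the strand setting is not given in the sources used here. The expected counts deposited by the authors were rounded to whole numbers, filtered with edgeR's filterByExpr, TMM-scaled and tested with edgeR 4.0.16 (quasi-likelihood, R 4.3.3) over all 15 libraries, with Benjamini-Hochberg adjustment over 16001 genes. SE is the log2 fold change divided by the square root of F. The effective lengths deposited by the authors served only for levels per kilobase. Correlations used log2 CPM with a prior count of 2 and 100000 permutations. Alternatives were DESeq2 1.42.0, limma-voom (limma 3.58.1), other scalings and filters, an alveolar type 2 covariate and leaving out libraries. Counts without deficient 3, adequate 1 or the 3 outlying libraries were added after seeing the data. The fit was tested on simulated data. Members and lists were chosen with earlier results of these data known. For each test, the text names the 4 members (mean log2 CPM of at least 1) and 3 other pathway genes with the smallest p, 10 core genes throughout, and Slc7a11, Txn1 and Chac1; values of further genes were chosen after being seen.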

Additional observations from a re-analysis of the deposited data

Results flagged for a closer look

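In the supplemented group, the only diet with more than 3 libraries, each of the 38 genes was checked for a single library far from the other 5. Chance alone marks about 1 in 20 such groups, and 2 of 38 were marked. Srxn1 had 131 CPM in supplemented 1, where the next library had 79.4 and the lowest 55.9. Pgd had 47.8 CPM in supplemented 6, where the next library had 62.5 and the highest 70.3.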

How the results depend on the processing

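No paired analysis was possible because the labels give no replicate numbers, and the numbers used here follow accession order. No member passed an adjusted p of 0.05 in any of the 8 tests under any alternative run, and the smallest adjusted p among members over them was 0.0714. With DESeq2, the other pathway genes called numbered 2 in deficient minus adequate, 1 in supplemented minus adequate and 1 for any difference, against 0 with edgeR. Leaving out 1 library at a time, the members' median log2 fold change ran from -0.169 to 0.025 in deficient minus adequate (the latter without deficient 2) and from -0.282 to -0.119 in restricted minus adequate (the former without restricted 2). With diet groups centred, 2 members in place of 1 passed for the alveolar type 2 correlation and 3 NRF2 target pairs in place of 0, and without the 3 outlying libraries 1 pair passed. Without those 3, Gpx3 passed for alveolar type 2 and Sod3 did not. By rho, both pairs that passed were lost with RLE scaling and with diets centred, and Nqo1 with Txnrd1 also without the 3 (adjusted permutation p = 0.0721). Values that turned were Gsta3 in deficient minus restricted with the alveolar type 2 covariate (-0.524), Gstm1 in deficient minus supplemented without the 3 outlying libraries (-0.129) and without deficient 3 (-0.112, against up to 1.065 without any other single library), and in the trend Prdx6 (0.002) and Mgst1 (0.021) without the 3 and Mgst1 without deficient 3 (0.088, against down to -0.393 without any other single library). The cause was not tested. For single genes, 1299 values under alternatives kept the side of the threshold and, where a value has a direction, that direction. Another 6 turned, 6 passed the threshold only under the alternative and 1 passed only in the main run. Nearly all main values failed the threshold, so staying on that side was close to fixed in advance. With 3 libraries in most groups and a common biological coefficient of variation of 0.461, small differences were not detectable.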
